A study of Arabidopsis thaliana with 12 samples.

Results

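The transcripts described here are those of 10 clock genes of *Arabidopsis thaliana*: the 5 pseudo-response regulator genes *TOC1* (AT5G61380), *PRR3* (AT5G60100), *PRR5* (AT5G24470), *PRR7* (AT5G02810) and *PRR9* (AT2G46790), the evening complex genes *ELF3* (AT2G25930), *ELF4* (AT2G40080) and *LUX* (AT3G46640), the *LUX* homologue *BOA* (AT5G59570), and the co-regulator gene *LNK1* (AT5G64170). They are identified by gene number and not by a threshold on their values, and all 10 were found among the 22318 genes tested in WT and *det1-1* seedlings and the 22400 tested in light-grown genotypes. Messenger RNA was sequenced from whole 5-day-old seedlings of the Columbia-0 background, in 12 libraries that form 6 groups of 2 independently grown replicates, each from a pool of about 12 seedlings. The groups are WT and *det1-1* grown in light (L), that is in days of 16 h light and 8 h darkness, WT and *det1-1* grown in constant darkness (D), and *ubp22-1* and *det1-1ubp22-1* grown in the same light. *det1-1* is a partial loss-of-function allele of *DET1*, a repressor of light-regulated development, *ubp22-1* is a T-DNA insertion line of the histone H2B deubiquitinase gene *UBP22*, and the double mutant carries both. Every library comes from the same time of day, so that for these rhythmic genes a shift in the hour of the peak and a change in its height cannot be told apart.

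In plants the pseudo-response regulators are transcriptional repressors that act one after the other from morning to evening, *PRR9* first, then *PRR7*, *PRR5* and finally *TOC1*, and keep the morning genes *CCA1* and *LHY* low during the day. ELF3, ELF4 and LUX form the evening complex, which represses *PRR9*, *PRR7*, *LUX* itself and the growth genes *PIF4* and *PIF5* at dusk and in the early night, with ELF3 as the scaffold, LUX as the DNA-binding protein and ELF4 as a small partner of ELF3. CCA1 and LHY in turn repress several of these genes through the evening element, a short promoter sequence, while LNK1 acts with RVE8 as a coactivator on the same element. In Arabidopsis hypocotyls the evening complex and the pseudo-response regulators restrain elongation, which ties the clock to growth in light and darkness.

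The promoters were read for the evening element first, since CCA1, LHY and LNK1 are known to act through it. Its letters AAAATATCT, searched on both strands from 250 bases before to 50 bases after the annotated gene start, were found in 5 of the 10 genes and in 2.99% of 21799 promoters of the same length (RefSeq, TAIR10.1). The 5 matches are shown in 30 bases of the strand of the gene, 5′ to 3′, with the element in capitals, which appears as its reverse complement in every case but *LUX*.
*TOC1*, chr5:24674802-24674831, plus strand: aaatatcatgAGATATTTTctccaagatga
*PRR5*, chr5:8358714-8358743, minus strand: gattttttctAGATATTTTcttttctccac
*PRR9*, chr2:19232623-19232652, plus strand: ttctctgagaAGATATTTTcgtggttgtga
*LUX*, chr3:17182979-17183008, plus strand: tagaagatctAAAATATCTagctaactcgt
*BOA*, chr5:24003835-24003864, plus strand: tgcgggtaaaAGATATTTTagattatctag
The element of *PRR9* lies after the gene start, at bases 27 to 35, and that of the other genes lies before it, the nearest at -43 in *BOA* and the farthest at -187 in *PRR5*. A match is a description of the letters and not evidence of binding. The related CCA1-binding site AAAAATCT was found in 1 of the 10 genes, *PRR5*, and in 8.02% of all promoters.

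The sequence bound by LUX, searched as GATACG or GATTCG on both strands, was present in *PRR9*, *ELF3* and *ELF4* and in 14.9% of all promoters. Its 3 matches are given in the same way, in capitals within 30 bases.
*PRR9*, chr2:19232465-19232494, plus strand: gaccacctccacCGAATCagccgcgataca
*ELF3*, chr2:11058849-11058878, plus strand: tatgacattttaCGTATCctaaaagaaaac
*ELF4*, chr2:16735028-16735057, minus strand: tgatatcagataGATACGtctacgtgagat
The G-box CACGTG, the core that light-regulated bZIP and bHLH factors bind, occurred in *PRR7*, *PRR9*, *LUX*, *BOA* and *LNK1* and in 8.72% of all promoters. *PRR9* was the gene with matches to 3 of the 4 motifs, including 2 G-boxes. The 250 bases before the starts of *BOA*, the gene with the widest range of levels, and of *PRR9*, the gene with the most matches, are printed with all motif matches in capitals.
*BOA*, chr5:24003638-24003887, plus strand: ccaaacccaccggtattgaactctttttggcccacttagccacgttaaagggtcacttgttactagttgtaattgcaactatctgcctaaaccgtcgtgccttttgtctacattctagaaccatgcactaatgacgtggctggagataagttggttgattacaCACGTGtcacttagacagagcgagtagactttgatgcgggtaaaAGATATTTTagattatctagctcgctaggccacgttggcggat
*PRR9*, chr2:19232357-19232606, plus strand: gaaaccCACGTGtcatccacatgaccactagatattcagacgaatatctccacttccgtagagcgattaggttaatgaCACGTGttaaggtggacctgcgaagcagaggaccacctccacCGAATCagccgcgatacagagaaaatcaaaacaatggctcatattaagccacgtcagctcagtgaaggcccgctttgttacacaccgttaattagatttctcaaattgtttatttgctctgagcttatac
*PRR3* had no match to any of the 4 motifs in this window.

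**Figure D1:**
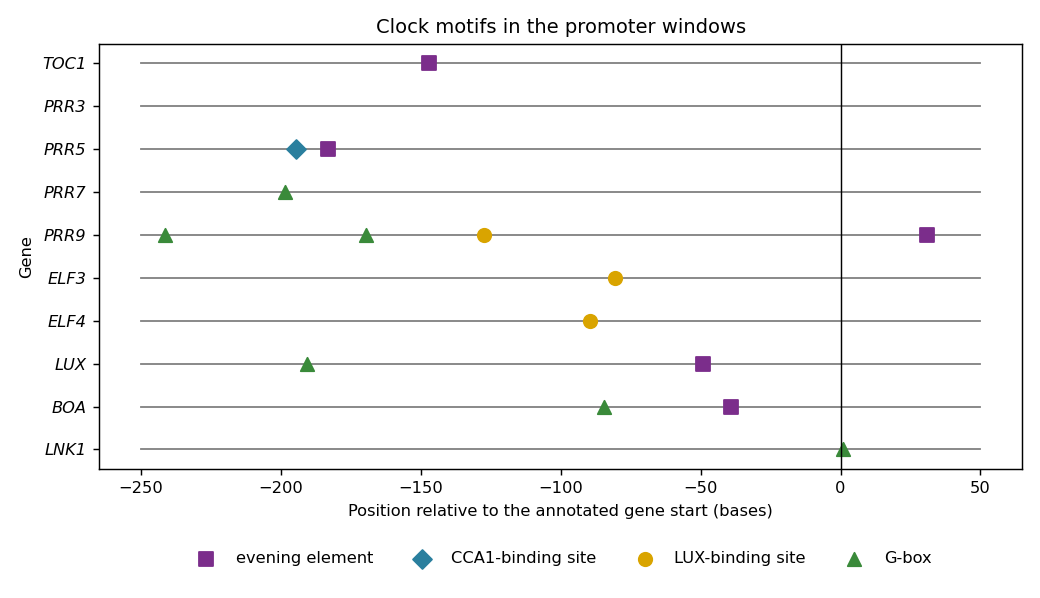
Matches to 4 motifs in the promoters of the 10 genes, each drawn as a line from 250 bases before to 50 bases after the annotated gene start (horizontal axis, bases), with one symbol per motif at the middle of the match. The evening element is found in 5 genes, after the start in *PRR9* and before it in *TOC1*, *PRR5*, *LUX* and *BOA*.

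The values are mean normalized counts of a group and log2 ratios between groups with their standard errors (SE). The deposited tables hold no value per library, so each level below is the mean of 2 replicates recovered from the fitted ratios, and the SE of the fitted model carries the replicate spread. A gene was called changed when its ratio exceeded 2-fold with an adjusted p under 0.01 in a two-sided Wald test with Benjamini-Hochberg adjustment over all genes, and "rose" and "fell" below are used of called genes. The normalized totals of the groups lay between 24190350 and 32605572. Antenna genes of photosynthesis, markers of green tissue, were all 10 present in every group, with a summed level of 1352000 in light and 231500 in darkness in WT, and of 935200 and 917300 in *det1-1*. The 9 root markers summed to 3302, 14370, 2550 and 1378 in the same order. Of these, the 4 root hair genes were low in darkness. Their means there ran from 0.793 (*EXPA18*) to 3.21 (*COBL9*) in WT and from 0.208 (*EXPA18*) to 12.9 (*COBL9*) in *det1-1*. The 7 seed storage genes summed to 22.3, 593, 7037 and 663. Behind the near-equal antenna sums of *det1-1*, 3 of the 10 antenna genes rose and 1 fell in light against darkness. Among all genes 15.7% rose and 11.8% fell there. The antenna gene that fell was *CAB1*, at 182470 in light and 424020 in darkness. In whole seedlings fewer cells of a type and less RNA per cell cannot be told apart, and the part of tissue make-up in the results below was not tested. The transcript of *DET1* had a log2 ratio to WT of 0.95 (SE 0.17) in *det1-1* (D) and of -0.17 (SE 0.17) in *det1-1* (L), so that it does not check the *det1-1* label. *UBP22* was higher and not lower in the libraries labelled *ubp22-1*. It averaged 414 normalized counts in WT (L), 8345 in those libraries and 4018 in those of the double mutant. A count per gene does not tell an intact transcript from one altered by the T-DNA insertion, so it does not check the *ubp22-1* label either.

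The first comparison asked how the genes differ between light-grown and dark-grown WT. Of the 10 genes, 5 fell in WT (L) against WT (D), *TOC1*, *PRR3*, *ELF3*, *LUX* and *BOA*, and 2 rose, *PRR9* and *LNK1*. Over all genes 15.6% fell and 20.9% rose. The median log2 ratio of light to darkness was -1.13 over the 10 genes and 0.02 over all genes. *PRR5*, *PRR7* and *ELF4* were not called. With a t distribution of 4 degrees of freedom the 5 falls were left and neither rise.

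*BOA*, whose protein binds DNA like LUX and activates *CCA1*, had the widest range. In WT it averaged 11.9 normalized counts in light and 1045 in darkness, and in *det1-1* 21.9 and 493. Both dark groups stood far above both light groups. In WT it was 87.5-fold lower in light, a log2 ratio of -6.45 (SE 0.35, adjusted p = 9.46e-76). The level in WT (L) rests on few reads, which is where its error is largest.

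*PRR3*, whose protein binds TOC1 and shields it from degradation, was likewise low in light and high in darkness. Light-grown seedlings averaged 30.7 normalized counts (WT) and 45.3 (*det1-1*), dark-grown ones 403 (WT) and 323 (*det1-1*). It was 13.1-fold lower in light in WT (log2 ratio -3.71, SE 0.28, adjusted p = 1.25e-38). The 2 dark groups did not differ beyond their error, nor did the 2 light groups.

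*TOC1*, the last regulator of the daily series, averaged 608 normalized counts in light and 3998 in darkness in WT, and 1410 and 6367 in *det1-1*. All 3 neighbours in this order of levels differed beyond their error. The fall in light was 6.58-fold in WT (log2 ratio -2.72, SE 0.16, adjusted p = 1e-62).

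*ELF3*, the scaffold of the evening complex, was at 876 normalized counts in light and 5411 in darkness in WT, while *det1-1* had 1231 and 2450. In WT it was 6.18-fold lower in light (log2 ratio -2.63, SE 0.17, adjusted p = 7.95e-50). *LUX*, its DNA-binding partner, stood at 339 in light and 1131 in darkness in WT, against 651 and 1772 in *det1-1*. Its fall in light was 3.34-fold in WT (log2 ratio -1.74, SE 0.17, adjusted p = 1.88e-22). The third subunit was not called. *ELF4* averaged 74.8 in light-grown and 64.3 in dark-grown WT, a log2 ratio of 0.22 with a 95% interval from -0.36 to 0.80 (adjusted p = 0.534).

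The 2 genes that rose in light were *PRR9* and *LNK1*. *PRR9*, the first regulator of the day, averaged 835 normalized counts in light and 224 in darkness in WT, and 1425 and 1070 in *det1-1*. WT (D) was the lowest of the 4 groups. The rise in light in WT was 3.73-fold (log2 ratio 1.90, SE 0.30, adjusted p = 1.05e-09). *LNK1* stood at 3296 in light and 1132 in darkness in WT, at 5102 and 2910 in *det1-1*, and rose 2.91-fold in light in WT (log2 ratio 1.54, SE 0.21, adjusted p = 2.99e-12). *PRR7*, which acts between *PRR9* and *PRR5*, was level in WT, with 3017 in light and 2961 in darkness. Its log2 ratio of 0.03 had a 95% interval from -0.32 to 0.37. For *PRR5* the WT means were 266 in light and 381 in darkness, a log2 ratio of -0.52 (SE 0.24) that did not pass the test (adjusted p = 0.0525).

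**Figure D2:**
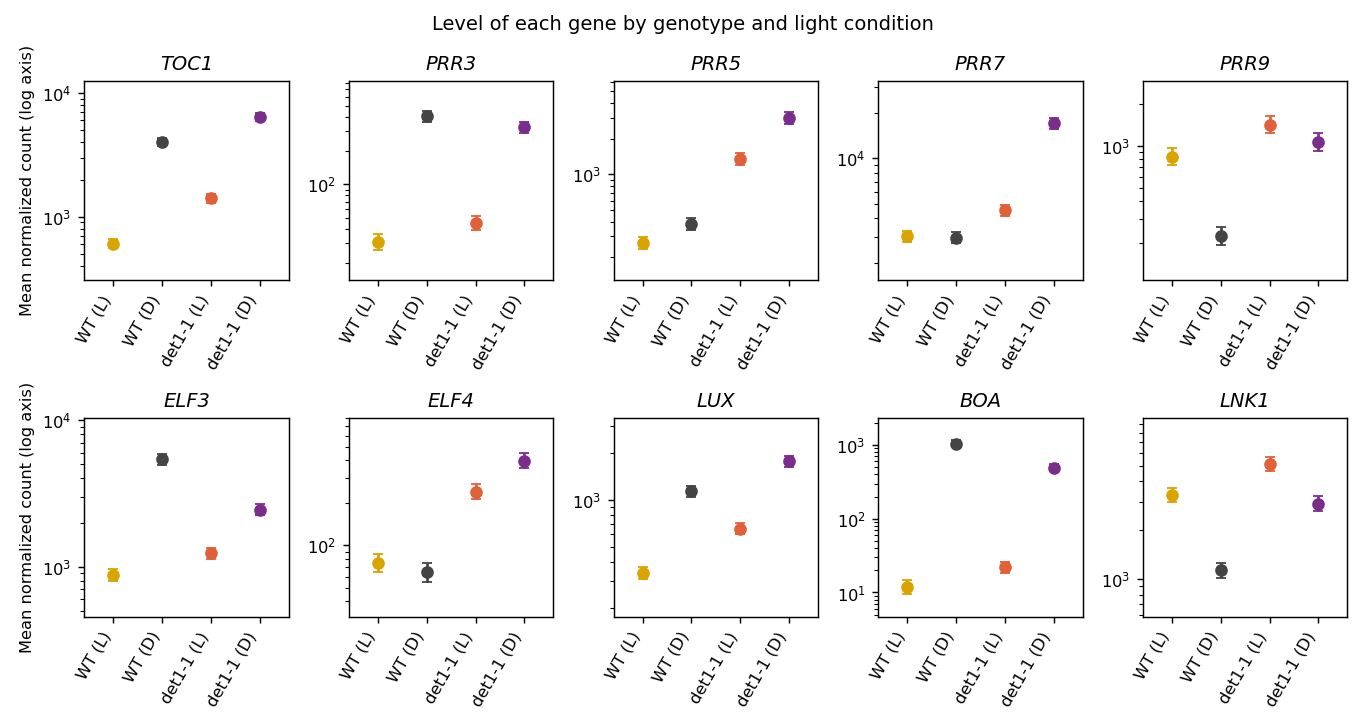
Mean normalized count (vertical log axis) of each of the 10 genes in WT and *det1-1* grown in light (L) and darkness (D). Points are group means over 2 replicates and bars are 1 modelled standard error, so the plot shows no single library. *BOA* runs from 11.9 in WT (L) to 1045 in WT (D), *PRR7* is high in *det1-1* (D) alone at 17123, and *PRR9* is low in WT (D) alone at 224.

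In *det1-1* seedlings light lowered 6 of the 10 genes and raised none, against 11.8% of all genes that fell and 15.7% that rose. The 6 were *TOC1*, *PRR3*, *PRR5*, *PRR7*, *LUX* and *BOA*, and the median log2 ratio was -1.30 over the 10 genes and 0.05 over all genes. *BOA* fell 22.6-fold (log2 ratio -4.50, SE 0.31, adjusted p = 2.82e-46) and *PRR3* fell 7.12-fold (-2.83, SE 0.27, adjusted p = 1.18e-23). *TOC1* fell 4.52-fold (-2.18, SE 0.16, adjusted p = 2.27e-41) and *LUX* fell 2.72-fold (-1.44, SE 0.17, adjusted p = 4.13e-16). *PRR7* fell 3.81-fold (-1.93, SE 0.17, adjusted p = 7.41e-27), and *PRR5* fell 2.22-fold (-1.15, SE 0.23, adjusted p = 3.32e-06). *ELF3* stood at the threshold: its log2 ratio of -0.99 (SE 0.17, adjusted p = 7.22e-08) was 1.99-fold, and it became -1.04 and was called when the ratios were recentred on the median. *LNK1* was 0.81 higher in light (SE 0.21, adjusted p = 4.28e-04), under 2-fold, and *ELF4* had a log2 ratio of -0.73 (SE 0.26, adjusted p = 0.0121). *PRR9* did not pass the test, with 0.41 (SE 0.29, adjusted p = 0.237). When p came from a t distribution with 4 degrees of freedom, no gene of the whole table was called in this comparison.

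**Figure D3:**
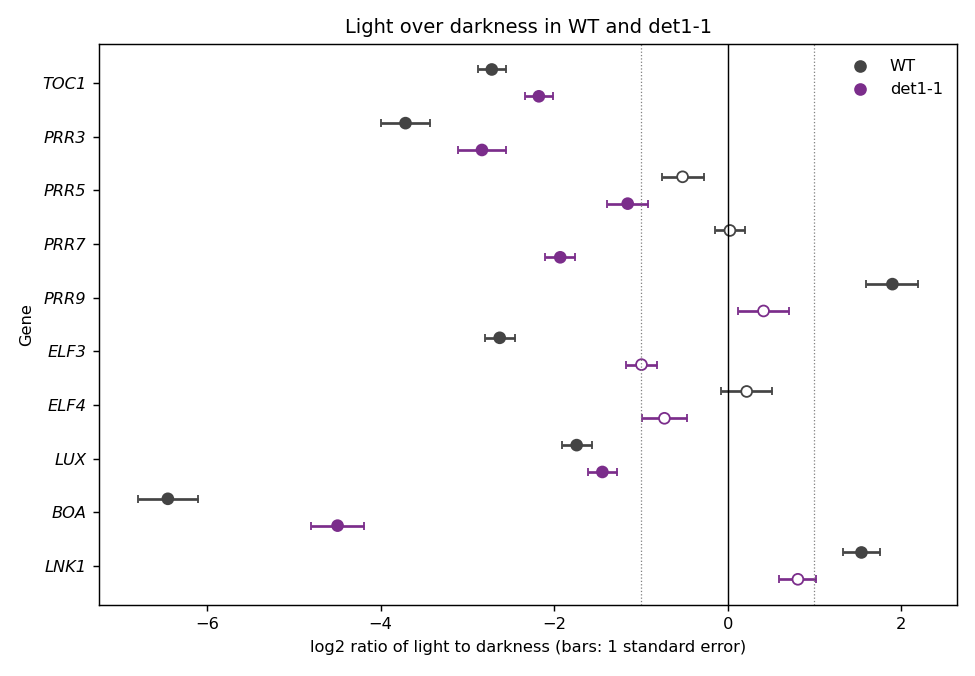
Log2 ratio of light to darkness (horizontal axis) for each gene in WT and in *det1-1*, with bars of 1 standard error. Filled points passed both thresholds, open points did not, and dotted lines mark 2-fold. *BOA* has the lowest ratios, -6.45 in WT and -4.50 in *det1-1*, and *PRR7* lies at 0.03 in WT and at -1.93 in *det1-1*.

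In darkness the *det1-1* mutation raised 3 pseudo-response regulator genes, *ELF4* and *LNK1* and lowered *ELF3* and *BOA*. These are 5 rises and 2 falls among the 10 genes, where 14.4% of all genes rose and 10.6% fell in *det1-1* (D) against WT (D). The largest ratio was that of *PRR5*, a late-day regulator, whose mean normalized count was 2990 in *det1-1* (D) against 381 in WT (D). This is 7.86-fold (log2 ratio 2.97, SE 0.24, adjusted p = 7.05e-35). *ELF4* stood at 399 against 64.3, which is 6.21-fold (2.63, SE 0.28, adjusted p = 3.3e-20). *PRR7* reached 17123 against 2961, which is 5.78-fold (2.53, SE 0.17, adjusted p = 9.95e-46), and per kb of exon it was the highest of the 10 genes in this group, with 5296 normalized counts per kb. *PRR9* was 4.78-fold higher (2.26, SE 0.30, adjusted p = 5.24e-13) and *LNK1* was 2.57-fold higher (1.36, SE 0.21, adjusted p = 1.47e-09).

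Within the evening complex the 3 subunits were thus not changed alike in dark-grown *det1-1*. *ELF3* fell 2.21-fold (-1.14, SE 0.17, adjusted p = 2.7e-10), *ELF4* rose, and *LUX* was 1.57-fold higher (0.65, SE 0.17, adjusted p = 3.87e-04), under the 2-fold threshold. *BOA*, the homologue of *LUX*, fell 2.12-fold (-1.08, SE 0.20, adjusted p = 6.53e-07). *TOC1* was 1.59-fold higher (0.67, SE 0.16, adjusted p = 6.58e-05) and *PRR3* had a log2 ratio of -0.32 (SE 0.23, adjusted p = 0.244). Antenna genes moved in the same comparison, with 9 of 10 higher in *det1-1* (D), and of 9 root markers 5 were lower and 1, *COBL9*, was higher. When a log2 ratio of at most 1 was taken as the null, 4 of the 7 calls were left, all of them rises, and with a t distribution of 4 degrees of freedom 2 were left, both rises.

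In light the *det1-1* mutation raised *TOC1*, *PRR5* and *ELF4* and lowered none of the 10 genes. Among all genes 2.2% rose and 1.01% fell in *det1-1* (L) against WT (L). *PRR5* again had the largest ratio, with 1346 against 266, or 5.07-fold (2.34, SE 0.24, adjusted p = 9.71e-20). *ELF4* stood at 241 against 74.8, or 3.22-fold (1.69, SE 0.28, adjusted p = 1.39e-07). *TOC1* was 2.32-fold higher (1.21, SE 0.16, adjusted p = 1.4e-11), and *LUX* was 1.92-fold higher (0.94, SE 0.18, adjusted p = 5.06e-06), just under the threshold of 2-fold.

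All 10 log2 ratios to WT were above 0 in light, with a median of 0.82 where that of all genes was 0.00. *PRR7* (0.58, SE 0.18, adjusted p = 0.0128), *LNK1* (0.63, SE 0.21, adjusted p = 0.0294) and *ELF3* (0.49, SE 0.18, adjusted p = 0.0453) missed the threshold of 0.01. *PRR9* had 0.77 (SE 0.29, adjusted p = 0.0653), *BOA* 0.87 (SE 0.42, adjusted p = 0.171) and *PRR3* 0.56 (SE 0.32, adjusted p = 0.287). The fit to the light-grown genotypes holds the same 4 libraries and gave ratios within 0.0248 of these. Its errors were smaller for *LNK1* and *PRR9*, whose adjusted p became 2.72e-07 and 6.26e-04. For *LNK1* the fitted spread was so small that 1.4% of all genes lay below it. The errors of *TOC1*, *PRR3*, *PRR5*, *PRR7* and *BOA* were larger in that fit, with 0.43 for *PRR5* (adjusted p = 1.54e-06). Of the 7 seed storage genes 5 were higher in *det1-1* (L), where their modelled log2 errors reached 1.71, in *CRU2*. In the fit to the light-grown genotypes these genes summed to 19.2 in WT and 6025 in *det1-1*. They summed to 3060 in the libraries labelled *ubp22-1* and to 72.8 in the double mutant. With a log2 ratio of at most 1 as the null, *PRR5* was the 1 call left, and with a t distribution of 4 degrees of freedom none was left among the 10 genes or in the whole table.

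For 4 of the 10 genes *det1-1* acted differently in darkness and in light, tested as the log2 ratio to WT in darkness minus that in light. *PRR7* and *PRR9* had the greater ratio in darkness, where 8.91% of all genes passed in this direction, and *ELF3* and *BOA* had the lower ratio in darkness, where 6.75% passed. For *PRR7* the difference was 1.96 (SE 0.25, adjusted p = 1.03e-13), from 2.53 in darkness and 0.58 in light. For *PRR9* it was 1.49 (SE 0.42, adjusted p = 0.00258), from 2.26 and 0.77.

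*ELF3* and *BOA* had ratios of opposite sign in the 2 conditions. *ELF3* gave a difference of -1.63 (SE 0.25, adjusted p = 7.8e-10), from -1.14 in darkness and 0.49 in light, of which the value in light missed the threshold. *BOA* gave -1.96 (SE 0.46, adjusted p = 2.08e-04), from -1.08 and 0.87, again with the value in light short of the test. The other evening complex genes were not called, with 0.95 (SE 0.39, adjusted p = 0.058) for *ELF4* and -0.30 (SE 0.24, adjusted p = 0.425) for *LUX*. *PRR5*, the gene with the largest ratio in both conditions, had a difference of 0.63 with a 95% interval from -0.03 to 1.29 (adjusted p = 0.165). *LNK1* (0.73, SE 0.30, adjusted p = 0.0553), *TOC1* (-0.54, SE 0.22, adjusted p = 0.0571) and *PRR3* (-0.88, SE 0.39, adjusted p = 0.0817) missed the threshold as well. With a log2 difference of at most 1 as the null *PRR7* was the 1 call left, and a t distribution of 4 degrees of freedom left none among the 10 genes or in the whole table.

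**Figure D4:**
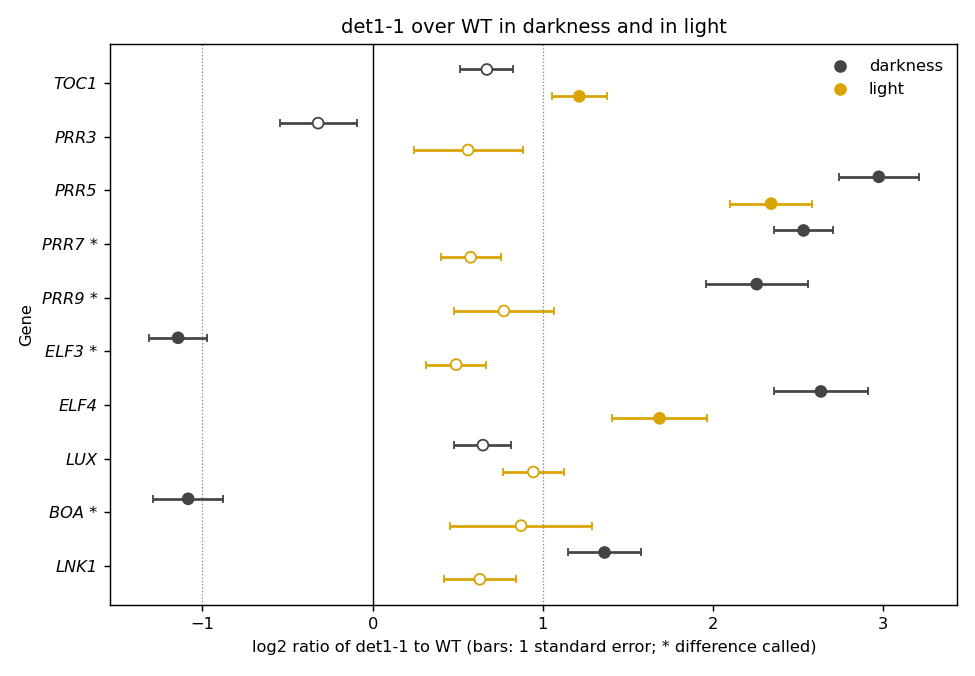
Log2 ratio of *det1-1* to WT (horizontal axis) for each gene in darkness and in light, with bars of 1 standard error. Filled points passed both thresholds, dotted lines mark 2-fold, and an asterisk marks the 4 genes whose ratio differed between darkness and light. *ELF3* and *BOA* lie at -1.14 and -1.08 in darkness, and all 10 genes lie above 0 in light.

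The order of the 4 groups in level differed from gene to gene. For *TOC1* and *LUX* it ran from *det1-1* (D) through WT (D) and *det1-1* (L) to WT (L), and each neighbour differed from the next. For *ELF3* and *BOA* WT (D) was the highest, then *det1-1* (D), and the 2 light groups did not differ beyond their error. For *PRR7* and *ELF4* *det1-1* (D) was the highest and WT (D) the lowest, with WT (D) and WT (L) not told apart. Nor were *det1-1* (L) and WT (L) for *PRR7* and the 2 *det1-1* groups for *ELF4*. For *PRR5* the order was *det1-1* (D), *det1-1* (L), WT (D) and WT (L), and the WT groups were the 1 pair of neighbours that did not pass. For *PRR9* and *LNK1* *det1-1* (L) was the highest and WT (D) the lowest, and WT (D) was the one group that differed from its neighbour in this fit. In the fit to the light-grown genotypes *det1-1* (L) and WT (L) passed as well for both genes. In the fit that holds the dark groups, *LNK1* also differed between *det1-1* (L) and *det1-1* (D), which are not neighbours in its order. A dark-grown *det1-1* seedling therefore had *PRR9* at 1070 against 835 in light-grown WT, a log2 ratio of 0.36 (SE 0.42), and *LNK1* at 2910 against 3296, a log2 ratio of -0.18 (SE 0.30). These pairs have no deposited table, and their errors, added over 2 comparisons that share a group, are overstated.

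Levels per kb of exon give the order among genes. In WT (L) *LNK1* (1236 per kb) and *PRR7* (933 per kb) were the highest and *PRR3* (11.0 per kb) and *BOA* (3.27 per kb) the lowest. In WT (D) *ELF3* (1968 per kb) and *TOC1* (1424 per kb) were the highest and *PRR9* (105 per kb) and *ELF4* (104 per kb) the lowest. Exon lengths are those of TAIR10.1, whose models may differ from the ones used for counting.

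Some of the genes share sequence with a neighbour on the other strand. The counting command as printed gives no strand option, and whether the libraries kept the strand is not known here. Reads of such pairs may therefore not have been told apart. *LUX* overlaps AT3G46650 over 1507 bases, and that gene was 1.43 higher in light in WT on the log2 scale (SE 0.27, adjusted p = 6.28e-07), opposite to *LUX*. *BOA* overlaps *UGT76E1* over 1896 bases, and *UGT76E1*, with a mean normalized count of 33.7, was lower in light in WT (-3.34, SE 0.56, adjusted p = 1.19e-08) and lower in *det1-1* (D) (-2.11, SE 0.52, adjusted p = 1.61e-04), as *BOA* was. *ELF3* overlaps *ALPHA-VPE* by 24 bases and the antisense RNA gene AT2G08135, which has no entry in the tables used here, by 183 bases, and *LNK1* overlaps AT5G64160 by 245 bases. The other 6 genes overlap no neighbour in TAIR10.1.

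None of the 10 genes was called in the libraries labelled *ubp22-1* against WT (L), where 0.0848% of all genes rose and 0.0312% fell and where *UBP22* itself was higher. *PRR9* had a log2 ratio of -0.42 (SE 0.19) and *BOA* of 1.37 (SE 0.59), and these 2 genes had an unadjusted p under 0.05, while the adjusted p was 1 for all 10 in the Wald test. The interval of *BOA* ran from 0.21 to 2.53 and rests on mean normalized counts of 12.9 in WT and 33.4 in these libraries. *LNK1* was the most tightly bounded, with -0.13 and a 95% interval from -0.34 to 0.08. A t distribution of 4 degrees of freedom gave an unadjusted p under 0.05 for 0 of the 10 genes.

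In *det1-1ubp22-1* (L) 2 of the 10 genes rose against WT (L), *PRR5* and *ELF4*, where 1.42% of all genes rose and 0.848% fell. Mean normalized counts of *PRR5* were 252 in WT, 216 in the libraries labelled *ubp22-1*, 1271 in *det1-1* and 855 in the double mutant. The double mutant was 3.39-fold above WT (1.76, SE 0.43, adjusted p = 8.3e-04). For *ELF4* the means were 72.1, 89.7, 230 and 152 in the same order, and the double mutant was 2.11-fold above WT (1.08, SE 0.28, adjusted p = 0.00188). *TOC1* stood at 625, 657, 1441 and 1032, and its ratio of the double mutant to WT was 0.72 (SE 0.19, adjusted p = 0.00179), under 2-fold. *PRR9* (0.91, SE 0.19, adjusted p = 3.24e-05) and *LNK1* (0.66, SE 0.11, adjusted p = 6.24e-08) also passed the p threshold below 2-fold, which makes 5 genes without a minimum fold change. With a log2 ratio of at most 1 as the null, or with a t distribution of 4 degrees of freedom, none of the 10 was called.

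The double mutant and *det1-1* were compared directly by the difference of their ratios to the same WT libraries. None of the 10 genes was called, and 0.00893% of all genes rose and 0.00893% fell. Of the 10 genes 0 had an unadjusted p under 0.05 with the summed error of this Wald test. The lowest differences were those of *ELF4* (-0.60, 95% interval from -1.37 to 0.16), *PRR5* (-0.57, from -1.75 to 0.61), *TOC1* (-0.48, from -0.99 to 0.03) and *LUX* (-0.41, from -0.88 to 0.05). A second error was modelled from the group means and from a spread per gene shared by the 8 libraries of the fit. With it the Wald test gave *TOC1*, *LUX* and *ELF4* unadjusted p of 0.00838, 0.0119 and 0.0197 and adjusted p of 0.362, 0.409 and 0.481. With that error 11 of the 22400 genes rose and 5 fell, and 1789 had an unadjusted p under 0.05. *PRR7* (0.04), *LNK1* (0.04) and *ELF3* (0.01) had differences near 0, with intervals that reached 0.59, 0.33 and 0.50.

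**Figure D5:**
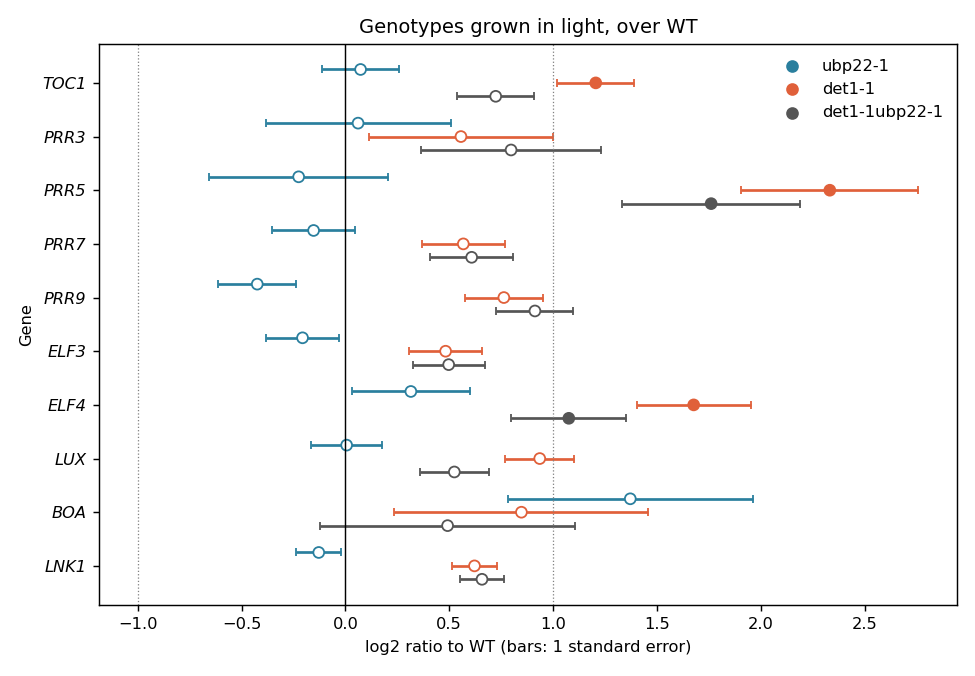
Log2 ratio to WT (horizontal axis) of each gene in the light-grown libraries labelled *ubp22-1*, in *det1-1* and in *det1-1ubp22-1*, with bars of 1 standard error. Filled points passed both thresholds and dotted lines mark 2-fold. *PRR5* and *ELF4* are filled in both *det1-1* genotypes, *TOC1* in *det1-1*, and no gene is filled in the libraries labelled *ubp22-1*.

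Further genes of the clock, 22 in all, were read from a list that holds none of the 10. Of these 8 rose and 0 fell in *det1-1* (D), where 14.4% of all genes rose and 10.6% fell, led by *FKF1*, which encodes a blue-light-sensing F-box protein (3.17, SE 0.26, adjusted p = 1.52e-33), *COR27*, a night-phased regulator (2.31, SE 0.18, adjusted p = 5.23e-37), and *LNK2*, the partner of *LNK1* (2.13, SE 0.15, adjusted p = 5.35e-47). In *det1-1* (L) 4 rose and 0 fell, beside 2.2% and 1.01% of all genes, among them *COR27* (3.75, SE 0.56, adjusted p = 2.54e-09), *FKF1* (3.18, SE 0.32, adjusted p = 1.1e-20) and *GI* (1.13, SE 0.16, adjusted p = 1.44e-10). In light against darkness in WT 5 of the 22 fell and 3 rose, which is 36.4% of the list and no more than the 36.5% called among all genes. In *det1-1* 12 fell and 0 rose, where 11.8% of all genes fell and 15.7% rose. The 2 largest falls in both genotypes were those of *COR27* (-7.73, SE 0.54, in WT and -6.29, SE 0.23, in *det1-1*) and *JMJD5* (-5.40, SE 0.31, and -4.39, SE 0.29). *COR27* averaged 3.67 normalized counts in WT (L), so its fall in WT and its ratio in *det1-1* (L) rest on few reads. In the double mutant 3 of the 22 rose and 0 fell, beside 1.42% and 0.848% of all genes. In the libraries labelled *ubp22-1* 0 were called, beside 0.0848% that rose and 0.0312% that fell among all genes, and 1 had an unadjusted p under 0.05.

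Known targets of the evening complex and of the pseudo-response regulators were read beside them. Of 6 evening complex targets, which include *PRR7*, *PRR9* and *LUX*, 3 rose in *det1-1* (D), beside 14.4% of all genes: *PRR7*, *PRR9* and *PIF5*, a growth-promoting factor (1.24, SE 0.13, adjusted p = 1.94e-19). In *det1-1* (L) *GI* was the 1 target called, a rise, beside 2.2% of all genes that rose and 1.01% that fell. Of 6 targets of the pseudo-response regulators, 3 rose in light in WT, beside 20.9% of all genes, *CDF1* (2.93, SE 0.30, adjusted p = 8.57e-22), *CDF3* (1.54, SE 0.19) and *CCA1* (1.23, SE 0.21, adjusted p = 7.94e-09), and 1 rose in *det1-1* (D), beside the same 14.4%, *CDF3* (1.08, SE 0.19). Of the 4 *ELF4*-like genes, *ELF4-L4* fell in light in WT (-1.18, SE 0.24, adjusted p = 3.76e-06), beside 15.6% of all genes. None of the 4 was called in the comparisons of genotypes.

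Likeness to other genes was measured over 6 log2 differences from WT (L), 3 in each fit, with that of *det1-1* (L) in both. The genes compared were 17164 whose mean over each fit reached 50 normalized counts. The distances below are in log2 units, and the genes are named for their pattern alone. Nearest to *LNK1* were AT1G50450 (0.223), *HIPL2* (0.232) and *EMB1030* (0.233), and nearest to *LUX* were *NIP2* (0.262), *WRKY25* (0.285) and AT5G42200 (0.303). *PRR9* was followed by AT4G13550 (0.276), AT2G38780 (0.345) and AT5G20220 (0.367), *ELF3* by AT3G23020 (0.328), *WRKY48* (0.347) and AT5G04250 (0.374), and *TOC1* by AT2G36220 (0.334), *PP2-A13* (0.376) and AT1G21680 (0.527). Close to *PRR7* were *SLD1* (0.43), AT3G13062 (0.437) and *COPT1* (0.497), and close to *ELF4* were AT1G31790 (0.549), *PDC2* (0.582) and AT2G30600 (0.9). *PRR5* had *SIP2* (0.548), AT5G53740 (1.06) and *MIOX1* (1.12), and *PRR3* had AT5G21020 (0.659), AT5G42825 (0.695) and AT1G05340 (0.717). Against the 17164 genes compared, *BOA* was the most isolated of the 10, its nearest gene being *MGL* (1.62), followed by *XTH15* (1.84) and AT2G33830 (1.92). The means of *BOA* and *PRR3* over the fit to the light-grown genotypes were themselves below 50 normalized counts. Genes as low as these in light, *JMJD5* among them, were therefore left out of the comparison. Whether a gene left out lies nearer to *BOA* or *PRR3* was not tested. Among the 10 genes themselves the closest pair was *PRR9* and *LNK1* (0.78).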

How the data were processed

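Messenger RNA was measured in 12 libraries, whose groups come from the submitters' labels. The authors mapped reads with STAR to TAIR10, used HTSeq for counts per gene and ran DESeq2 with a single group factor on 8 libraries at a time, once for the 2 genotypes grown in both conditions and once for the 4 genotypes in light, so that the 4 WT (L) and *det1-1* (L) libraries are in both fits. The submitters' processing notes also name CASAVA 1.8. The 7 deposited tables hold comparisons of groups. The deposited signal is the mean of counts divided by a size factor per library. The deposited log2 fold changes come with standard errors, a Wald score and p-values. A line holding a total was left out of each table. Depth per library is unknown, and replicates could not be compared.

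The deposited fold changes and errors were used, and darkness over light was turned to light over darkness. Wald p-values were computed again and adjusted over all genes, which left the side of the 0.01 threshold unchanged for 156472 of 156472 gene entries. The difference between darkness and light sums the variances of both comparisons. For the double mutant against *det1-1*, variances were added, which overstates the error. Group means were recovered from the signal and the fold changes, and the modelled errors had median ratios of 0.99 to 1.011 to the deposited ones. The calculations were tested on simulated data. The 10 genes were all named, and from other lists *DET1*, *UBP22* and up to 3 called genes with the largest change per comparison, plus the 3 genes nearest in pattern to each called gene. The genes and lists were chosen with earlier results of these data known, and 3 listed identifiers were dropped because the reference does not pair them with the listed name. Positions and sequences are from RefSeq TAIR10.1. Alternatives were an adjusted p under 0.05, no minimum fold change, a mean normalized count of at least 10, a t distribution with 4 degrees of freedom, a null of a log2 fold change of at most 1, recentring on the median, the second fit, and a modelled error. Python 3.11.15 with NumPy, pandas, SciPy and matplotlib was used.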

Additional observations from a re-analysis of the deposited data

Results flagged for a closer look

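For 4 of the 10 genes the effect of *det1-1* in darkness differed from that in light by a test of the difference itself. Among all genes 8.91% passed with the greater ratio in darkness and 6.75% with the lower one. Of the 22 other clock genes 10 passed with the greater ratio in darkness and 1 with the lower, and of the 10 antenna genes 10 and 0. The log2 ratio of *det1-1* to WT in darkness minus that in light was 1.96 for *PRR7*, 1.49 for *PRR9*, -1.63 for *ELF3* and -1.96 for *BOA*. *BOA* averaged 11.9 normalized counts in WT (L), and it overlaps *UGT76E1*, for which the same difference was -2.42 (SE 0.82, adjusted p = 0.0155). The part of that overlap in the value of *BOA* was not tested.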

How the results depend on the processing

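The tables hold no value per library, so no replicate could be left out. No paired analysis was possible because the comparisons carry no replicate. An adjusted p under 0.05, a minimum mean of 10 normalized counts and recentring kept the number of the 10 genes called within 1.5 times in all 8 comparisons, as did the second fit for *det1-1* (L) and the modelled error for the double mutant against *det1-1*. Recentring moved a ratio by at most 0.05 and added *ELF3* in *det1-1* (L) against *det1-1* (D). Without a minimum fold change, 5 genes in place of 2 were called in the double mutant against WT. With a null of a log2 ratio of at most 1, the calls went from 7 to 4 in *det1-1* (D), from 3 to 1 in *det1-1* (L), from 2 to 0 in the double mutant and from 4 to 1 for the difference between darkness and light. With a t distribution of 4 degrees of freedom they went to 2 in *det1-1* (D) and to 0 in these other 3 comparisons and for light against darkness in *det1-1*, where 6 had been called. Causes were not tested. Among the 22 other clock genes the t distribution left 4 of 8 calls for light in WT, 4 of 8 in *det1-1* (D), and 0 of 12 for light in *det1-1*, 0 of 4 in *det1-1* (L), 0 of 3 in the double mutant and 0 of 11 for the difference. The null of at most 1 left 4 for light in WT, 6 for light in *det1-1*, 2 in *det1-1* (L), 0 in the double mutant and 2 for the difference, and no minimum fold change gave 16, 10 and 8 in *det1-1* (D), *det1-1* (L) and the double mutant, with these settings on this list chosen after seeing the data. The CCA1-binding site in place of the evening element was found in 1 gene rather than 5. For *det1-1* (L) against WT (L) the errors were largest for *BOA* and *PRR3*, with 0.42 and 0.32 in the fit that holds the dark groups. In the fit to the light-grown genotypes they were 0.61 and 0.44, with 0.43 for *PRR5*. The summed error of *BOA* for the double mutant against *det1-1* was 0.87.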
